A study of Mus musculus with 4 samples.

Results

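ATP-dependent chromatin remodellers are represented here by 46 genes that encode the ATPases of the SWI/SNF, ISWI, CHD, INO80 and related families and the best-known subunits of their complexes. They were chosen by gene symbol from family and complex membership, and all 46 were found among the 52636 gene identifiers of the count data. Of them, 21 encode ATPases and 25 encode subunits without ATPase activity. All 46 passed the filter on low counts and were tested with edgeR's quasi-likelihood test, which was fitted over 19041 genes.

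The data are RNA-seq counts from tdTomato+ cells sorted by FACS from mouse embryonic kidneys, in 2 control and 2 *Eya1*cKO libraries. Control embryos carried the *Eya1CreER* allele and the *tdTomato* reporter (*Eya1CreER;tdTomato*), and *Eya1*cKO embryos carried the same alleles with floxed *Eya1* (*Eya1CreER;Eya1fl/fl;tdTomato*). Cre was thus driven from the *Eya1* locus in both genotypes, embryos of both received tamoxifen, and kidneys were taken about 48 h after it was first given, at about E12.75. Each library was made from 5000 sorted cells after cell suspensions of several kidneys had been combined. The cell portions of 1 genotype were sorted at the same time, so *P* values measure the spread between cell portions and libraries more than that between embryos.

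Remodelling ATPases use the energy of ATP hydrolysis to slide, evict, space or edit nucleosomes and so set how open DNA is to transcription factors and polymerases. SWI/SNF complexes, which exist as BAF, PBAF and non-canonical BAF, mostly open chromatin at enhancers and promoters. ISWI complexes space nucleosomes evenly, CHD proteins include the ATPases of the NuRD complex, and the INO80 and SWR1 class exchanges the histone variant H2A.Z. Many positions in these complexes can be filled by 1 of several paralogues, and the choice changes during development. In neurons, for example, *Actl6a*, *Phf10* and *Ss18* of the progenitor BAF complex give way to *Actl6b*, *Dpf1*, *Dpf3* and *Ss18l1*. In the kidney, SWI/SNF and NuRD proteins are known to act in nephron progenitor cells (NPCs), the cells that *Eya1* maintains.

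Promoter windows of 300 bases, from 250 before to 50 after a RefSeq transcription start, were found for 37 of the 46 genes with 44 windows in all (GRCm38.p6). Their median GC content was 65.7%, against 52.7% over all 32851 windows. In what follows a gene counts if any of its windows holds the motif, whereas the percentages are per single window. Genes with several windows are favoured by this. The GC box GGGCGG, read on both strands as were all motifs here, was in a window of 34 of the 37 genes, against 35.7% of all windows and 80.6% of the 9690 windows of at least 60% GC. The NRF1 core GCGCATGC was found for 4 of 37 genes, *Smarca4*, *Smarca5*, *Smarcb1* and *Smarcc1*, against 2.71% of all windows and 5.06% of the GC-rich windows. Of 3 E2F forms searched, TTTGGCGC and TTTCGCGC were in no window of the 37 genes, against 0.514% and 0.323% of all windows. Of the GC-rich windows 0.991% and 0.568% held them. The third form, TTTCCCGC, was found for *Arid1a*, *Brd7*, *Hells* and *Smarcd1*, against 1.07% of all windows and 2.16% of the GC-rich windows. The right part of the REST site, GGACAGCGC, was in windows of *Arid1a* and *Arid1b*, against 0.405% of all windows and 0.98% of the GC-rich windows. Its left part, TTCAGCACC, was in none of the 37 genes' windows, against 0.371% of all windows and 0.423% of the GC-rich windows. The other motifs searched were the CCAAT box (14 of 37 genes, 37.4% of all windows), the E-box CACGTG (2 genes, 7.15%), the ETS core CCGGAAG (4 genes, 8.86%), the YY1 core AAGATGGC (2 genes, 2.75%) and the TATA box TATAAA (2 genes, 13.6%). No window was held for *Arid2*, *Baz1a*, *Bcl7a*, *Chd1*, *Chd2*, *Chd3*, *Chd7*, *Smarce1* and *Ss18*. A match is a description of the letters and not of binding.

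Of the 14 genes that fell in *Eya1*cKO 8 had a window, and those of the 5 that held an NRF1 core or the E2F form TTTCCCGC are printed here, 5′ to 3′ on the gene's strand. Capitals mark the NRF1 core in *Smarcc1* (chr9:110131774-110132073, plus strand), *Smarca5* (chr8:80739410-80739709, minus strand) and *Smarca4* (chr9:21615919-21616218, plus strand, which has it at 2 places), and this E2F form in *Hells* (chr19:38930740-38931039, plus strand) and *Arid1a* (chr4:133753936-133754235, minus strand). The RefSeq start lies inside the GENCODE span of the gene for *Smarcc1*, *Arid1a*, *Hells* and *Smarca5*.
Smarcc1: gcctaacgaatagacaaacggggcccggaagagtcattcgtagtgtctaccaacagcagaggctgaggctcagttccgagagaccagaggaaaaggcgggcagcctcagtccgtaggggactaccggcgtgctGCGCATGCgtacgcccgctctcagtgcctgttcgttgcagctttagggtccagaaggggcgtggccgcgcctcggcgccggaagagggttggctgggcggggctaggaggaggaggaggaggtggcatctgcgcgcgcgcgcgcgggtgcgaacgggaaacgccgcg
Smarca5: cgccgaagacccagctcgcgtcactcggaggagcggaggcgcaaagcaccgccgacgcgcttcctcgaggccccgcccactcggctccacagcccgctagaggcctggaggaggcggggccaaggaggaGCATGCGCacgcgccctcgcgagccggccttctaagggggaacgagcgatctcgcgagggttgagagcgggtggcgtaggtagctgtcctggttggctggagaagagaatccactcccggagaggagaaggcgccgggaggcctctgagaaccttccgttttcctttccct
Smarca4: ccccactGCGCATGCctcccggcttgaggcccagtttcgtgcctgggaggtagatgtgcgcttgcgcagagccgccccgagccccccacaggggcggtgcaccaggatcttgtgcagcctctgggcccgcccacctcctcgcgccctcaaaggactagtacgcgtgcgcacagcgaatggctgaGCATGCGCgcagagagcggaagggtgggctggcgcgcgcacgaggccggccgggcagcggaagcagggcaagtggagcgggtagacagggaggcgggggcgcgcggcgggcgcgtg
Hells: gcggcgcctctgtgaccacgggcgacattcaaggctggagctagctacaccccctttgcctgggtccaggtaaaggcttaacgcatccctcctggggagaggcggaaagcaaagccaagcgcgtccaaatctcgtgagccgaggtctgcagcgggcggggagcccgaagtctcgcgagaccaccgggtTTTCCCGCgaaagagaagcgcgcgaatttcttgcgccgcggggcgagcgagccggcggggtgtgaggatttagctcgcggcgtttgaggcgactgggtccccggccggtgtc
Arid1a: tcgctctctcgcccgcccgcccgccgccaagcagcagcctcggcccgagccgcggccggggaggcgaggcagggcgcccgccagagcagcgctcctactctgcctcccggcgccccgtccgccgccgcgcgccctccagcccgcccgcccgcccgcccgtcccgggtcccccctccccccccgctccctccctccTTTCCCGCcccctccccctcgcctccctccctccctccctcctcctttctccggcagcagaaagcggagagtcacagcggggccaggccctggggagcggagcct

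Gene counts summed to 35411905 and 37999342 in the controls but to 22239293 and 17457452 in *Eya1*cKO. *Eya1* had 6612 and 6420 counts in the 2 controls against 377 and 219 in *Eya1*cKO, and 8.23% of the control level remained (log2 fold change -3.60, standard error 0.18, edgeR adjusted *P* = 0.00019). All 7 NPC markers fell, with a summed level of 1313 and 1303 CPM (counts scaled to library size with edgeR's TMM factors) in the controls against 280 and 223 CPM in *Eya1*cKO. All 6 podocyte markers rose (505 and 515 against 2357 and 2352 CPM), as did all 6 endothelial markers (536 and 548 against 918 and 985 CPM), all 5 adrenocortical markers (15.2 and 10.5 against 646 and 631 CPM), 4 of 6 stromal markers (1675 and 1667 against 3465 and 3471 CPM) and 6 of 8 sympathoadrenal and neuronal markers, while *Elavl4* of that list fell (41.9 and 46.0 against 349 and 396 CPM over the 8). Of 9 proliferation markers 6 fell and none rose (3254 and 3202 against 2237 and 2178 CPM). Of 6 ureteric bud markers 2 fell (161 and 165 against 95.3 and 68.9 CPM), no macrophage marker of 6 passed in edgeR or DESeq2 (105 and 109 against 121 and 137 CPM, 1 with an unadjusted *P* under 0.05 in edgeR), and the 6 erythroid markers summed to under 1 CPM in every library. In such bulk samples, fewer cells of a type and less RNA per cell cannot be told apart, and the part of the cell mixture in the remodeller results was not tested.

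More remodeller genes fell than rose in *Eya1*cKO. In edgeR's quasi-likelihood test with Benjamini-Hochberg adjustment over all genes, 14 of the 46 fell, 1 rose (*Chd3*) and 31 did not pass. Those that fell were *Chd7*, *Bcl7a*, *Smarcal1*, *Baz1a*, *Smarcc1*, *Smarca5*, *Hells*, *Ep400*, *Smarce1*, *Chd1*, *Arid1a*, *Baz1b*, *Smarca4* and *Arid2*, and they include members of every family. The genes that fell were 30.4% of the 46, against 4.41% of the 19041 genes tested, and the 1 that rose was 2.17%, against 5.15%. Since remodeller genes are abundant and abundant genes pass the test more often, the same shares were taken over genes with a mean count of at least 1000, where 14 of 38 remodeller genes fell (36.8%, against 11.6% of 6436 genes) and 1 rose (2.63%, against 8.20%). The median log2 fold change of the 46 genes was -0.23, against 0.02 over all genes tested, and 31 of them had a negative value, as did 9311 of the 19041. At a mean count of at least 1000 the medians were -0.25 for the 38 remodeller genes and -0.07 for the 6436 genes. For 25 of the 46 genes the *Eya1*cKO libraries were each below both controls (54.3%, against a background of 30.0%), and for 7 each above both (15.2%, against 25.3%). For the other 14 genes the libraries of the 2 genotypes overlapped. Library quality moved with genotype as well, with 13.9% and 12.9% of reads on no gene in the controls and 22.7% and 20.9% in *Eya1*cKO, 6.32% and 6.69% against 12.9% and 12.7% not aligned, and 26486 and 27091 against 21455 and 20538 genes with a read. Its part in the counts of remodeller genes was not tested.

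The changes were small and the levels high. All 15 genes that passed changed by less than 1 on the log2 scale, the furthest being *Chd7* at -0.81, and the fallen genes kept from 56.9% (*Chd7*) to 79.7% (*Arid2*) of the control level. Control libraries agreed closely, with a median absolute log2 difference of 0.05 between them over the 46 genes, whereas the *Eya1*cKO libraries differed by a median of 0.20 and, for *Dpf1*, by 1.65. At least 1000 counts were present in every library for 37 genes, and only *Actl6b*, *Chd5* and *Dpf1* had fewer than 100 in any library. On a per-length scale (TPM, from exonic lengths), the median control level was 71.0 and 42 genes were at or above 10 TPM.

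**Figure D1:**
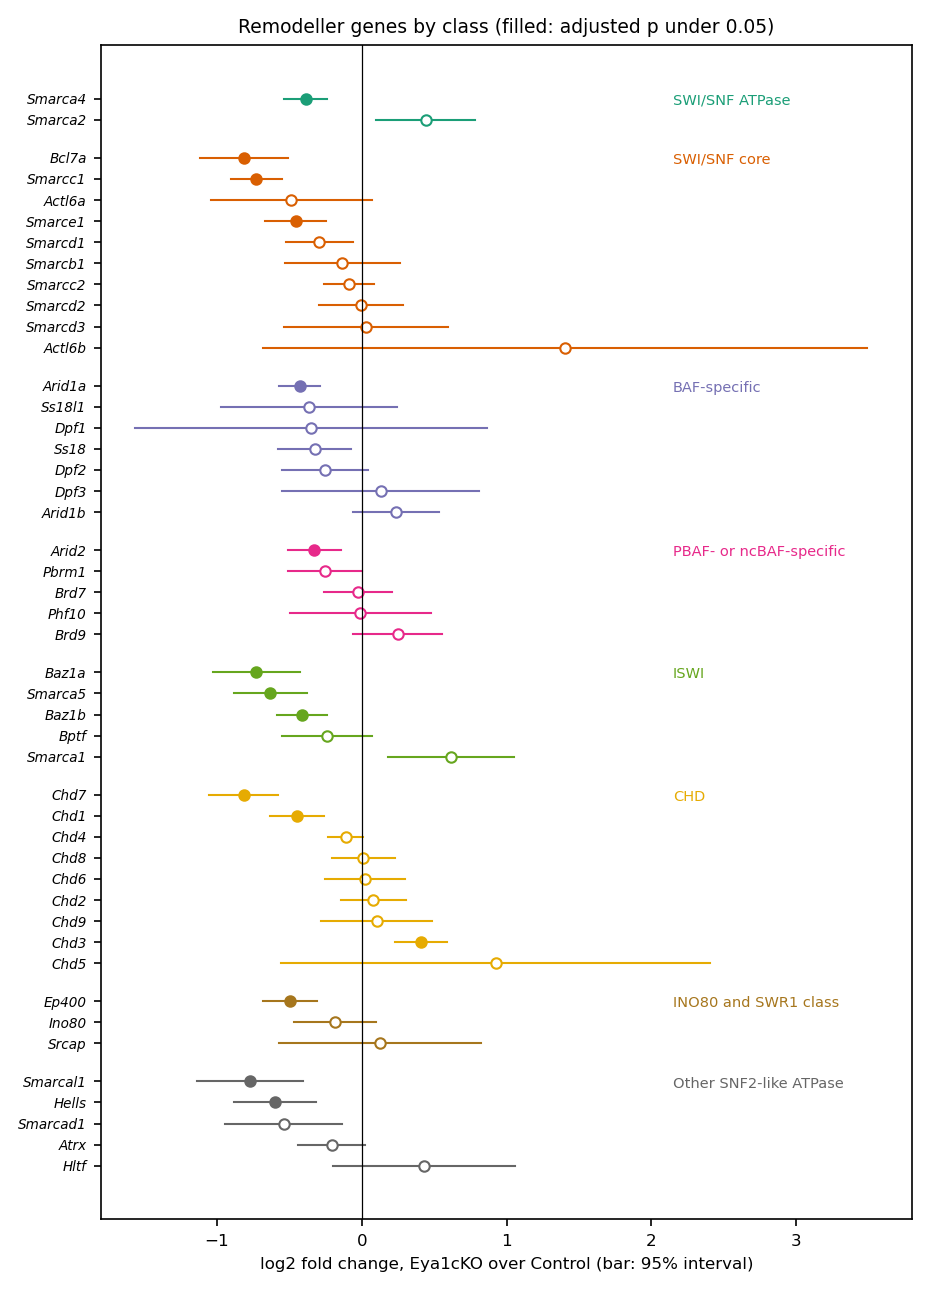
Log2 fold change of *Eya1*cKO over control for each of the 46 remodeller genes (x axis), grouped by class in colour, with its 95% interval as a bar; filled points have an adjusted *P* under 0.05 in edgeR. The 14 filled points left of 0 lie in all families, and *Chd3* at 0.41 is the only filled point on the right.

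**Figure D2:**
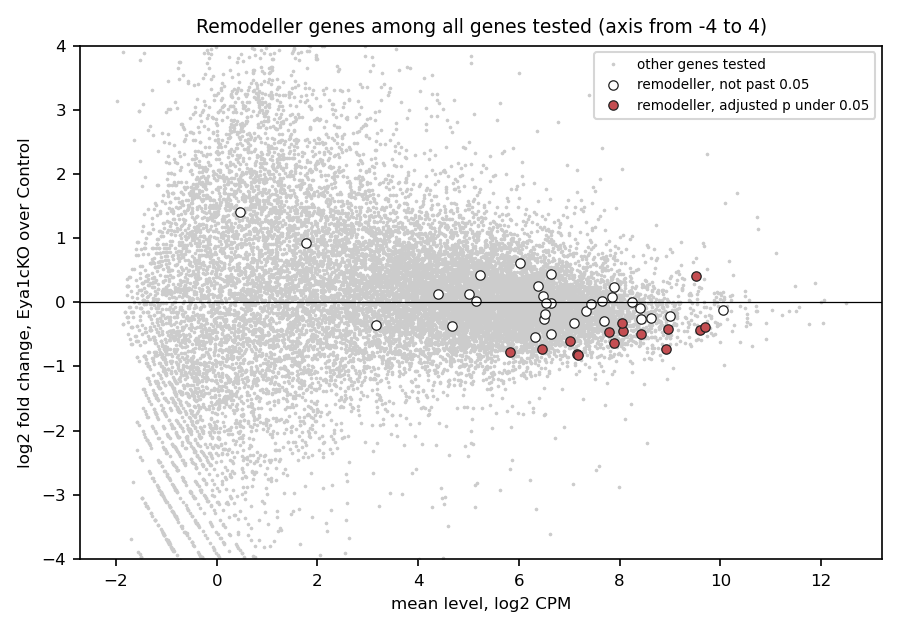
Log2 fold change (y axis) against mean level in log2 CPM (x axis) for all genes tested in grey and the 46 remodeller genes as circles, red where the adjusted *P* was under 0.05; 743 genes beyond the y axis are not drawn. Remodeller genes lie mostly among abundant genes, within 1 of 0 on the log2 scale except *Actl6b*, which has few counts.

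Among the catalytic SWI/SNF ATPases, *Smarca4* fell and *Smarca2* did not pass the test. *Smarca4*, which encodes BRG1 and lies on chromosome 9 from 21616169 to 21704230 (GRCm38), had 32126 and 36142 counts in controls 1 and 2 against 15774 and 13053 in *Eya1*cKO 1 and 2, or 920 and 965 against 698 and 744 CPM. Its *Eya1*cKO libraries were below both controls (log2 fold change -0.39, standard error 0.06, edgeR adjusted *P* = 0.014). *Smarca2*, which encodes the alternative ATPase BRM, was at 85.4 and 84.4 CPM in the 2 controls against 128 and 99.8 CPM in *Eya1*cKO. The *Eya1*cKO libraries were above the controls, but their spread was wide and the gene did not pass (log2 fold change 0.44, edgeR adjusted *P* = 0.11, 95% interval 0.10 to 0.78). Per length, *Smarca4* was far the more abundant in the controls, at 555 ± 17.7 TPM against 22.7 ± 0.237 TPM for *Smarca2* (SD, n = 2).

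Of the 10 genes for subunits common to several SWI/SNF complexes, *Smarcc1*, *Bcl7a* and *Smarce1* fell and 7 did not pass. *Smarcc1* encodes BAF155, a scaffold around which the complex assembles, lies on chromosome 9 from 110117708 to 110240178, and had the smallest adjusted *P* of all 46 genes. It had 21175 and 22425 counts in controls 1 and 2 against 8620 and 6041 in *Eya1*cKO 1 and 2, or 606 and 599 against 382 and 344 CPM. The libraries of the 2 genotypes were well apart (log2 fold change -0.73, standard error 0.07, edgeR adjusted *P* = 0.003), and 60.4% of the control level remained. *Smarcc1* was also among the genes that the study itself named from these libraries, as were *Smarca5*, *Chd7* and *Hdac2* (given further on), so their falls are not independent of that choice. A gene spelled Smarcl1 there may be *Smarcal1*. Its paralogue *Smarcc2*, for BAF170, was at 346 and 350.2 CPM in the 2 controls against 335 and 319 CPM in *Eya1*cKO, close to level (log2 fold change -0.09, edgeR adjusted *P* = 0.46, 95% interval -0.26 to 0.08).

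*Bcl7a*, on chromosome 5 from 123343834 to 123374992, encodes a small accessory subunit and had 6670 and 6390 counts in controls 1 and 2 against 2128 and 1982 in *Eya1*cKO 1 and 2, or 191 and 171 against 94.2 and 113 CPM. The libraries of the 2 genotypes did not overlap (log2 fold change -0.81, standard error 0.13, edgeR adjusted *P* = 0.012). *Smarce1*, on chromosome 11 from 99209047 to 99231017, encodes BAF57, a subunit with an HMG box that binds DNA, and had 8720 and 9756 counts in controls 1 and 2 against 4034 and 3403 in *Eya1*cKO 1 and 2, or 249.7 and 261 against 179 and 194 CPM. Again both *Eya1*cKO libraries were the lower (log2 fold change -0.46, standard error 0.09, edgeR adjusted *P* = 0.025). *Smarcb1*, for the core subunit that contacts the nucleosome's acidic patch, was at 169 and 166 CPM in the 2 controls against 125 and 185 CPM in *Eya1*cKO, with *Eya1*cKO 1 below and *Eya1*cKO 2 above the controls (log2 fold change -0.13, edgeR adjusted *P* = 0.65).

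None of the BAF60 genes passed. *Smarcd1* was at 221 and 234 CPM in the 2 controls against 175 and 198 CPM in *Eya1*cKO, with both *Eya1*cKO libraries the lower, and did not pass (log2 fold change -0.29, edgeR adjusted *P* = 0.11). *Smarcd2* had a log2 fold change of -0.0039 and *Smarcd3* of 0.03, each with overlapping libraries. Of the exonic bases of *Smarcd3*, 50.1% are shared with *Chpf2* or *Mir671* on the opposite strand, so its counts are uncertain where the strand setting of the counting is not stated. The same holds, for a smaller part of their exonic bases, for *Actl6a* (11.6%, with *Mrpl47*) and *Phf10* (9.57%, with *1600012H06Rik*).

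*Actl6a*, for BAF53A, which serves proliferating cells, was at 120.2 and 115 CPM in the 2 controls against 107 and 57.1 CPM in *Eya1*cKO. *Eya1*cKO 1 was near the controls and *Eya1*cKO 2 far below them, and the gene did not pass (log2 fold change -0.49, edgeR adjusted *P* = 0.22). *Actl6b*, for the neuronal BAF53B, had 43 and 12 counts in the 2 controls against 56 and 25 in *Eya1*cKO, too few for a firm value (log2 fold change 1.40, edgeR adjusted *P* = 0.34, 95% interval -0.69 to 3.49).

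Of the 7 genes for subunits of the BAF form, only *Arid1a* passed. *Arid1a* encodes the large AT-rich subunit BAF250A, which links the core to the ATPase module, and lies on chromosome 4 from 133679008 to 133756769. It had 31256 and 32785 counts in controls 1 and 2 against 14463 and 11856 in *Eya1*cKO 1 and 2, or 895 and 876 against 640 and 676 CPM. Both genotypes were tight and apart (log2 fold change -0.43, standard error 0.06, edgeR adjusted *P* = 0.0085). *Arid1b*, for the alternative subunit BAF250B, was at 216 and 219 CPM in the 2 controls against 288 and 222 CPM in *Eya1*cKO, with *Eya1*cKO 2 scarcely above the controls (log2 fold change 0.24, edgeR adjusted *P* = 0.26).

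The PHD-finger subunits, which read acetylated histone tails, did not pass. *Dpf2*, the general form, was at 103 and 94.8 CPM in the 2 controls against 84.8 and 80.8 CPM in *Eya1*cKO (log2 fold change -0.25, edgeR adjusted *P* = 0.23). *Dpf3* was at 19.8 and 19.6 CPM in the 2 controls against 17.8 and 26.2 CPM in *Eya1*cKO and *Dpf1* at 10.4 and 10.01 CPM in the 2 controls against 11.4 and 3.65 CPM in *Eya1*cKO, both overlapping, with log2 fold changes of 0.13 and -0.35. *Ss18*, whose product joins BAF and non-canonical BAF, was lower in both *Eya1*cKO libraries at 157 and 146 CPM in the 2 controls against 125 and 117 CPM in *Eya1*cKO, but did not pass (log2 fold change -0.33, edgeR adjusted *P* = 0.1). Its paralogue *Ss18l1* had a log2 fold change of -0.36 and did not pass either.

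The paralogues that change places in neurons were compared as well. None of the 3 genes of the progenitor form (*Actl6a*, *Phf10* and *Ss18*) and none of the 4 of the neuronal form (*Actl6b*, *Dpf1*, *Dpf3* and *Ss18l1*) passed in edgeR or in DESeq2, and at an unadjusted *P* under 0.05 in edgeR the numbers were 1 and 0. With 9.56% of all genes passing in either direction, so few genes would hold under 1 that passed, and their number says nothing of a change. Their summed levels were 378 and 359 against 307 and 298 CPM for the progenitor form and 61.7 and 56.6 against 50.9 and 56.9 CPM for the neuronal form, beside the sympathoadrenal and neuronal markers given above, of which 6 rose and 1 fell. *Actl6b* in particular stayed at or below 2.48 CPM in every library.

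Of the 5 genes for subunits of PBAF or non-canonical BAF, *Arid2* fell. *Arid2* encodes the AT-rich subunit that takes the place of ARID1 in PBAF, lies on chromosome 15 from 96287518 to 96404992, and had 10283 and 11128 counts in controls 1 and 2 against 5237 and 4213 in *Eya1*cKO 1 and 2, or 295 and 297 against 232 and 240.2 CPM. The libraries did not overlap, yet its adjusted *P* was the nearest to the threshold of the 15 (log2 fold change -0.33, standard error 0.08, edgeR adjusted *P* = 0.046), and it passed under 3 of 9 other settings of scaling, filter, depth, block and test. *Pbrm1*, for the bromodomain-rich polybromo subunit of PBAF, was at 385 and 363 CPM in the 2 controls against 282 and 348 CPM in *Eya1*cKO and did not pass (log2 fold change -0.26, edgeR adjusted *P* = 0.17). *Brd7* and *Phf10*, also of PBAF, had log2 fold changes of -0.03 and -0.01 with overlapping libraries, and for *Phf10* those of *Eya1*cKO were on either side of the controls (75.9 and 123 against 100.1 and 96.8 CPM). *Brd9*, which defines non-canonical BAF, was above the controls in both *Eya1*cKO libraries at 72.7 and 80.2 CPM in the 2 controls against 88.2 and 93.9 CPM in *Eya1*cKO and did not pass (log2 fold change 0.25, edgeR adjusted *P* = 0.26). Over all 24 SWI/SNF genes, 6 fell, 18 did not pass and the median log2 fold change was -0.25.

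Of 5 ISWI genes, *Smarca5*, *Baz1a* and *Baz1b* fell, and the median log2 fold change was -0.41. *Smarca5*, which encodes the ATPase SNF2H and lies on chromosome 8 from 80698507 to 80739497, had 10219 and 10666 counts in controls 1 and 2 against 4586 and 2935 in *Eya1*cKO 1 and 2, or 293 and 285 against 203 and 167 CPM. Both *Eya1*cKO libraries were well below the controls, *Eya1*cKO 2 the more so (log2 fold change -0.63, standard error 0.11, edgeR adjusted *P* = 0.015). *Smarca1*, on the X chromosome from 47809368 to 47892974, encodes the other ISWI ATPase, SNF2L, and had 1853 and 1844 counts in controls 1 and 2 against 1514 and 1611 in *Eya1*cKO 1 and 2, or 53.1 and 49.3 against 67.0 and 91.8 CPM. Its 2 *Eya1*cKO libraries were above the controls, but edgeR did not call the gene (log2 fold change 0.62, edgeR adjusted *P* = 0.086, 95% interval 0.18 to 1.05), while DESeq2's Wald test gave an adjusted *P* of 0.037. Sex-linked genes differed between the genotypes as well. *Xist*, expressed from the inactive X, was at 249.8 and 223 CPM in the 2 controls against 31.1 and 35.97 CPM in *Eya1*cKO (log2 fold change -2.83, edgeR adjusted *P* = 0.00019), and of 4 Y-linked genes 1 rose, *Eif2s3y* (log2 fold change 1.09, edgeR adjusted *P* = 0.014). The part of embryo sex in the values of X-linked *Smarca1* and *Atrx* was not tested.

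*Baz1a* encodes ACF1, the partner of SNF2H in the nucleosome-spacing complex ACF, and lies on chromosome 12 from 54892989 to 55014348. It had 3737 and 4264 counts in controls 1 and 2 against 1550 and 1129 in *Eya1*cKO 1 and 2, or 107 and 114 against 68.6 and 64.4 CPM. Both *Eya1*cKO libraries were below the controls by similar amounts (log2 fold change -0.73, standard error 0.13, edgeR adjusted *P* = 0.017). *Baz1b*, on chromosome 5 from 135187264 to 135246129, encodes WSTF, another partner of SNF2H, and had 19848 and 21451 counts in controls 1 and 2 against 9239 and 7907 in *Eya1*cKO 1 and 2, or 568 and 573 against 409 and 451 CPM. Its fall was smaller, with the 2 genotypes still apart (log2 fold change -0.41, standard error 0.07, edgeR adjusted *P* = 0.018). *Bptf*, for the largest subunit of NURF, was at 408 and 444 CPM in the 2 controls against 309.7 and 415 CPM in *Eya1*cKO, and overlapped (log2 fold change -0.24, edgeR adjusted *P* = 0.27).

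**Figure D3:**
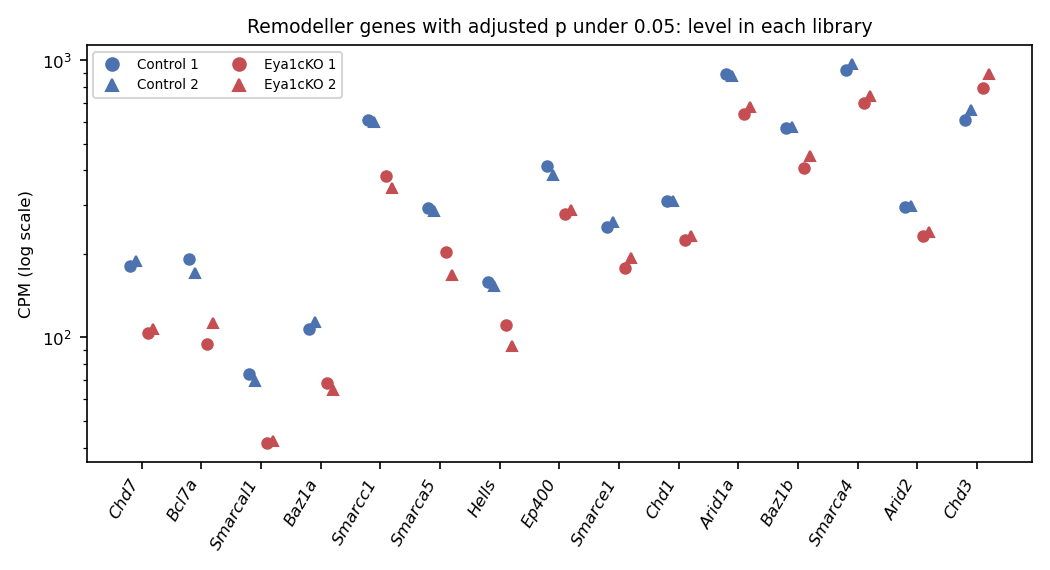
Level in CPM (y axis, log scale) of the 15 remodeller genes with an adjusted *P* under 0.05 in each library, controls in blue and *Eya1*cKO in red, with a circle for library 1 and a triangle for library 2. For every gene shown the red points lie on 1 side of the blue points, below them for 14 genes and above them for *Chd3*.

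CHD genes moved apart from each other. Of 9 genes, *Chd7* and *Chd1* fell, *Chd3* rose and 6 did not pass, with a median log2 fold change of 0.02. *Chd7*, mutated in CHARGE syndrome and active at enhancers of developmental genes, lies on chromosome 4 from 8690406 to 8867659 and had 6334 and 7044 counts in controls 1 and 2 against 2335 and 1880 in *Eya1*cKO 1 and 2, or 181 and 188 against 103 and 107 CPM. The libraries of each genotype were tight and the genotypes apart (log2 fold change -0.81, standard error 0.10, edgeR adjusted *P* = 0.0057). The other 3 members of its subfamily did not pass. *Chd8*, linked to autism, was at 296 and 306 CPM in the 2 controls against 282 and 327 CPM in *Eya1*cKO (log2 fold change 0.01, 95% interval -0.21 to 0.23), and *Chd6* and *Chd9* had log2 fold changes of 0.02 and 0.10, all with overlapping libraries.

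*Chd1*, on chromosome 17 from 15704967 to 15772610, encodes a remodeller that binds methylated H3K4 and works with elongating polymerase, and had 10829 and 11596 counts in controls 1 and 2 against 5054 and 4055 in *Eya1*cKO 1 and 2, or 310.1 and 309.7 against 224 and 231 CPM. The controls were almost equal and both *Eya1*cKO libraries were lower (log2 fold change -0.45, standard error 0.08, edgeR adjusted *P* = 0.017). *Chd2*, its closest relative, was at 221 and 229 CPM in the 2 controls against 253 and 221 CPM in *Eya1*cKO and overlapped (log2 fold change 0.08, edgeR adjusted *P* = 0.63). Of its exonic bases, 18.4% are shared with *1810026B05Rik* on the same strand, so its level, and any share drawn from it, is uncertain. *Chd3*, on chromosome 11 from 69343273 to 69369406, encodes an ATPase of NuRD, a complex that joins remodelling with histone deacetylation, and had 21248 and 24655 counts in controls 1 and 2 against 17982 and 15573 in *Eya1*cKO 1 and 2, or 609 and 658 against 796 and 888 CPM. It was the one remodeller gene that rose, with both *Eya1*cKO libraries above both controls (log2 fold change 0.41, standard error 0.08, edgeR adjusted *P* = 0.022). *Chd4*, for the main NuRD ATPase, was at 1088 and 1107 CPM in the 2 controls against 1022 and 1009 CPM in *Eya1*cKO and did not pass (log2 fold change -0.11, edgeR adjusted *P* = 0.21, 95% interval -0.24 to 0.01). *Chd5*, the neural member, had only 82 and 85 counts in the 2 controls against 84 and 92 in *Eya1*cKO and did not pass (log2 fold change 0.93, edgeR adjusted *P* = 0.37).

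In the INO80 and SWR1 class 1 of 3 genes fell. *Ep400*, on chromosome 5 from 110664373 to 110770717, encodes the ATPase of the TIP60 complex, which deposits H2A.Z and acetylates histones, and had 14524 and 14437 counts in controls 1 and 2 against 6304 and 5060 in *Eya1*cKO 1 and 2, or 416 and 386 against 279 and 288 CPM. Both *Eya1*cKO libraries were below the controls (log2 fold change -0.50, standard error 0.08, edgeR adjusted *P* = 0.012). *Ino80* was at 97.1 and 97.7 CPM in the 2 controls against 83.6 and 88.4 CPM in *Eya1*cKO and did not pass (log2 fold change -0.18, edgeR adjusted *P* = 0.35). *Srcap* was at 29.2 and 33.4 CPM in the 2 controls against 43.3 and 23.03 CPM in *Eya1*cKO, with the *Eya1*cKO libraries on either side of the controls (log2 fold change 0.13), and shares 61.7% of its exonic bases with a gene on the same strand.

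Of the 5 other SNF2-like ATPases, *Smarcal1* and *Hells* fell, and the median log2 fold change was -0.54. *Smarcal1* encodes an annealing helicase that protects stalled replication forks, lies on chromosome 1 from 72583251 to 72633134, and had 2570 and 2612 counts in controls 1 and 2 against 939 and 742 in *Eya1*cKO 1 and 2, or 73.6 and 69.8 against 41.6 and 42.3 CPM. The *Eya1*cKO libraries were nearly equal and far below the controls (log2 fold change -0.77, standard error 0.15, edgeR adjusted *P* = 0.027). *Hells*, which encodes LSH, needed for DNA methylation of repeats, lies on chromosome 19 from 38930915 to 38971051 and had 5535 and 5744 counts in controls 1 and 2 against 2508 and 1638 in *Eya1*cKO 1 and 2, or 159 and 153 against 111 and 93.4 CPM. Here too the *Eya1*cKO libraries were below the controls (log2 fold change -0.60, standard error 0.12, edgeR adjusted *P* = 0.026). As *Hells* and *Smarcal1* serve dividing cells, the fall in proliferation markers given above stands beside theirs, and its part in them was not tested.

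*Smarcad1*, for an ATPase that restores silent chromatin after replication, was lower in both *Eya1*cKO libraries, at 95.5 and 92.6 CPM in the 2 controls against 54.6 and 76.7 CPM in *Eya1*cKO, but these spread widely and it did not pass (log2 fold change -0.54, edgeR adjusted *P* = 0.1). *Atrx*, which deposits H3.3 at repeats with *Daxx* and is X-linked, was at 579 and 520.3 CPM in the 2 controls against 437 and 517 CPM in *Eya1*cKO, with *Eya1*cKO 2 just below the lower control (log2 fold change -0.21, edgeR adjusted *P* = 0.21). *Hltf*, another fork remodeller, was at 32.5 and 30.6 CPM in the 2 controls against 32.4 and 54.7 CPM in *Eya1*cKO, so that its positive value rested on *Eya1*cKO 2 (log2 fold change 0.43, edgeR adjusted *P* = 0.33).

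Where several paralogues can fill 1 position, the libraries of the 2 genotypes differed in the balance between them. The share of each paralogue in the summed TPM of its position is given here as a description, since 2 libraries against 2 cannot reach a *P* of 0.05 in a permutation test. In 9 of 11 positions the paralogue with most TPM in the controls had a smaller share in both *Eya1*cKO libraries than in either control. In 5 of the 9 that paralogue (*Smarca4*, *Smarcc1*, *Arid1a*, *Smarca5* or *Chd1*) is a gene already given as fallen, 30.0% of single genes had their *Eya1*cKO libraries below both controls, and no such rate was taken for other sets of paralogues, so nothing particular to these positions is read from the count. The exceptions were *Ss18*, which overlapped, and *Chd8*, whose share was larger in both.

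The widest difference was between the ISWI ATPases. The share of *Smarca5* was 81.3% and 81.98% in the 2 controls against 70.4% and 58.9% in *Eya1*cKO, the rest being *Smarca1*. *Eya1*cKO 2 was the further from the controls, and the genotypes did not overlap. For this pair the *Eya1*cKO libraries differed more from each other than the nearest libraries of the 2 genotypes did. The share of *Smarcc1* against *Smarcc2* was 55.4% and 54.8% in the 2 controls against 44.7% and 43.4% in *Eya1*cKO, so that the more abundant of this pair was *Smarcc1* in both controls and *Smarcc2* in both *Eya1*cKO libraries. In the CHD III subfamily *Chd7* made up 29.1% and 29.5% in the 2 controls against 19.4% and 18.2% in *Eya1*cKO, and *Chd8* 39.8% ± 0.279 against 45.3% ± 1.52 (SD, n = 2). For the NuRD ATPases, *Chd4* made up 65.2% and 63.8% in the 2 controls against 57.4% and 54.4% in *Eya1*cKO, and *Chd3* 34.6% and 36.1% in the 2 controls against 42.4% and 45.4% in *Eya1*cKO. *Chd4* remained the larger part in each library, though by less in *Eya1*cKO.

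Differences were smaller elsewhere. *Chd1* against *Chd2* made up 69.7% and 68.9% in the 2 controls against 59.2% and 63.1% in *Eya1*cKO, and *Arid1a* against *Arid1b* 81.98% and 81.4% in the 2 controls against 70.96% and 76.97% in *Eya1*cKO. *Smarcd1* was 63.6% and 63.2% in the 2 controls against 58.2% and 58.7% in *Eya1*cKO of the BAF60 genes, and *Dpf2* was 70.5% and 69.2% in the 2 controls against 67.3% and 64.4% in *Eya1*cKO of the DPF genes. In these 4 positions the shares of *Chd1*, *Arid1a*, *Smarcd1* and *Dpf2* did not overlap between the genotypes, while those of *Dpf1* and *Dpf3* did. For *Arid1a* and *Dpf2* the *Eya1*cKO libraries differed more from each other than the nearest libraries of the 2 genotypes did. *Smarca2* was a small part of the SWI/SNF ATPases, at 4.04% and 3.82% in the 2 controls against 7.70% and 5.74% in *Eya1*cKO, and *Smarca4* was the rest. For this pair as well the *Eya1*cKO libraries differed more from each other than the nearest libraries of the 2 genotypes did. With the longest transcript as length the mean share of *Smarca2* was 8.85% in the controls against 14.6% in *Eya1*cKO. *Actl6b* made up 0.924% and 0.253% in the 2 controls against 2.07% and 2.22% in *Eya1*cKO of the actin-related pair, on few counts. *Ss18* made up 70.6% and 71.7% in the 2 controls against 74.9% and 67.9% in *Eya1*cKO, which overlapped.

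**Figure D4:**
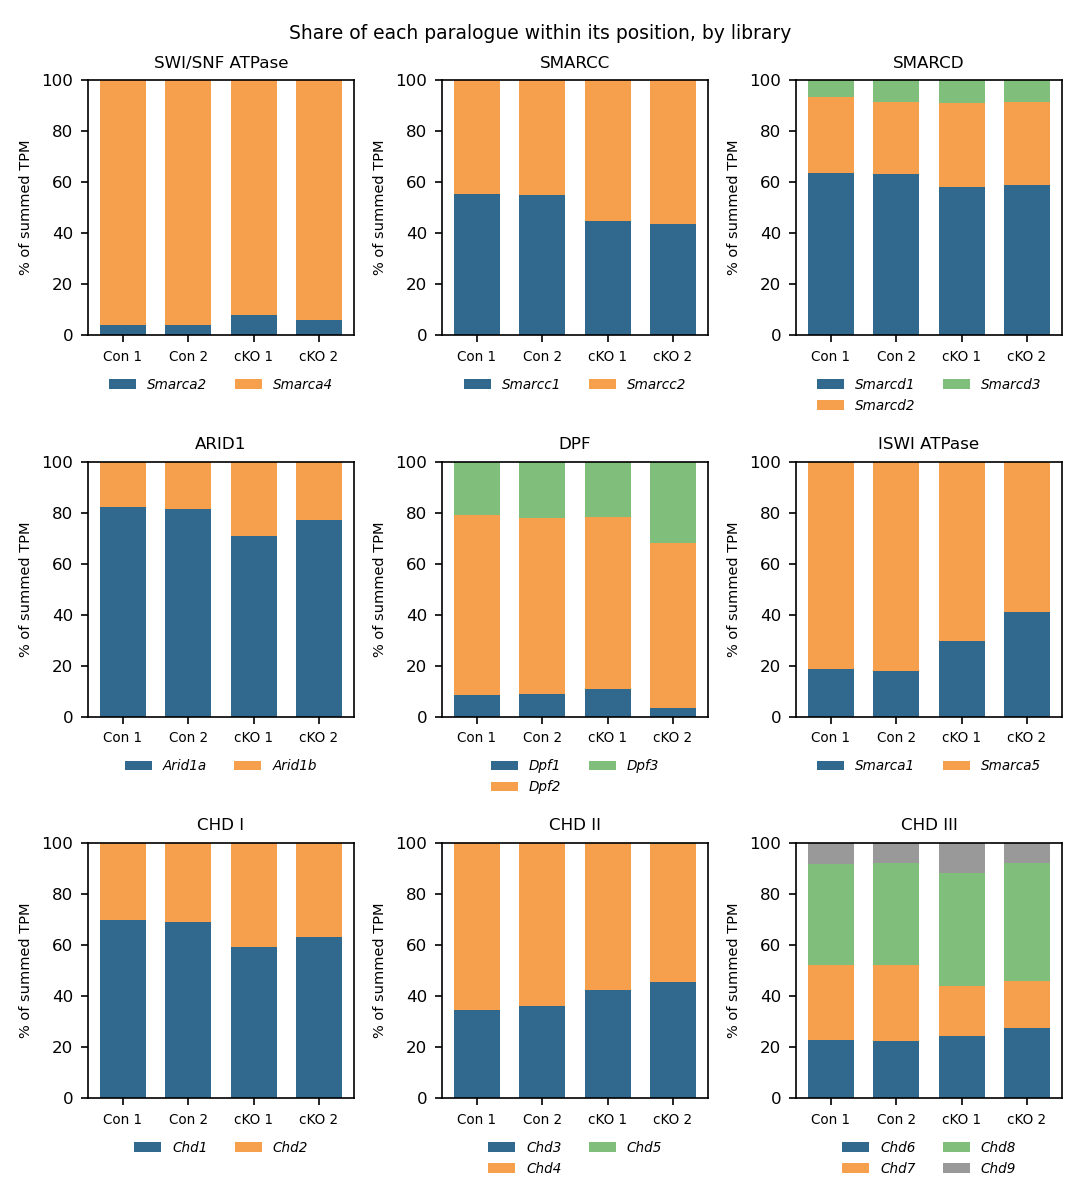
Share of each paralogue in the summed TPM of its position (y axis, %) in control 1 and 2 and *Eya1*cKO 1 and 2 (x axis), for 9 positions. The largest difference is in the ISWI ATPases, where *Smarca1* goes from 18.7% and 18.02% to 29.6% and 41.1%.

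Per length, the most abundant remodeller genes in the controls were *Smarca4* (555 ± 17.7 TPM, SD, n = 2), *Chd4* (522 ± 5.31), *Arid1a* (294 ± 5.19), *Smarcc1* (293 ± 3.19) and *Chd3* (286 ± 15.4). The order of *Smarca4* and *Chd4* depended on the length used, since with the longest transcript *Chd4* led in the controls at 481 TPM, against 434 TPM for *Smarca4*. By exonic length *Arid1a*, *Smarcc1* and *Chd3* lay within their spread of one another. In *Eya1*cKO the order of the 5 leading genes was *Chd4* (492 ± 7.51 TPM), *Smarca4* (433 ± 16.8), *Chd3* (387 ± 27.5), *Smarcc2* (229 ± 9.38) and *Arid1a* (223 ± 7.18), the last pair within their spread. With the longest transcript this order turned too, with *Chd3* (348 TPM) above *Smarca4* (339 TPM) and *Arid1a* (241 TPM) above *Smarcc2* (215 TPM). *Actl6b* (0.694 ± 0.577 TPM in the controls), *Chd5* (0.918 ± 0.0239), *Dpf1* (7.25 ± 0.220) and *Srcap* (7.56 ± 0.697) were the only genes below 10 TPM there. Since *Srcap* shares 61.7% of its exonic bases with *Gm42715* on the same strand, its TPM is uncertain. With the longest transcript as length *Baz1b* (258 TPM) stood beside *Chd3* (256 TPM) in the controls, and the median control level of the 46 genes was 82.8 TPM.

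Of 66 further genes that encode subunits or relatives of the same complexes, 8 fell and none rose in edgeR (nor in DESeq2, with 1 higher at an unadjusted *P* under 0.05 in edgeR), with a median log2 fold change of -0.19. The genes that fell were 12.1% of the 66, against 4.41% of all genes, and 15.4% of the 52 with a mean count of at least 1000, against 11.6% of all genes above that mark, and the 0 that rose stand beside 5.15% of all genes and 8.20% above the mark. Among other ISWI-complex subunits 2 of 9 fell. These were *Cecr2*, a partner of the ISWI ATPases, at 80.4 and 80.04 CPM in the 2 controls against 46.6 and 28.8 CPM in *Eya1*cKO (log2 fold change -1.05, standard error 0.21, edgeR adjusted *P* = 0.027), and *Rbbp4*, a histone chaperone shared with NuRD, at 338 and 353 CPM in the 2 controls against 248 and 267 CPM in *Eya1*cKO (log2 fold change -0.43, standard error 0.08, edgeR adjusted *P* = 0.022). Among NuRD partners 3 of 10 fell. They were *Cdk2ap1* (131 and 116 CPM in the 2 controls against 66.1 and 72.2 CPM in *Eya1*cKO, log2 fold change -0.84, standard error 0.13, edgeR adjusted *P* = 0.013), the deacetylase gene *Hdac2* (351 and 319 CPM in the 2 controls against 241 and 226 CPM in *Eya1*cKO, log2 fold change -0.52, standard error 0.09, edgeR adjusted *P* = 0.016) and *Mbd3* (267 and 274 CPM in the 2 controls against 218 and 206 CPM in *Eya1*cKO, log2 fold change -0.35, standard error 0.08, edgeR adjusted *P* = 0.046), so that NuRD held genes that fell beside *Chd3*, which rose. *Mbd3* passed under 4 of 9 other settings of scaling, filter, depth, block and test. In the INO80, SRCAP and TIP60 complexes 2 of 27 fell, the AAA+ ATPase genes *Ruvbl1* (85.8 and 94.1 CPM in the 2 controls against 56.7 and 61.2 CPM in *Eya1*cKO, log2 fold change -0.62, standard error 0.14, edgeR adjusted *P* = 0.041) and *Ruvbl2* (122 and 129 CPM in the 2 controls against 86.4 and 90.98 CPM in *Eya1*cKO, log2 fold change -0.50, standard error 0.11, edgeR adjusted *P* = 0.04), which are shared by these complexes. *Ruvbl2* and *Cecr2* each passed under 5 of the 9 settings, and *Ruvbl1* under 6. Of 14 other SNF2-like ATPases and partners 1 fell, *Cdca7*, whose product recruits LSH, the protein of *Hells*, to chromatin (141 and 133 CPM in the 2 controls against 81.2 and 80.8 CPM in *Eya1*cKO, log2 fold change -0.76, standard error 0.11, edgeR adjusted *P* = 0.01). None of 6 further SWI/SNF subunits passed in edgeR or DESeq2, and 1 had an unadjusted *P* under 0.05 in edgeR.

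The number of remodeller genes that passed depended on the libraries compared. Without control 1 or without control 2, where the spread comes from the *Eya1*cKO pair alone, almost no gene passed, remodeller or other. The median log2 fold change of the 46 genes was -0.21 without control 1 and -0.23 without control 2. Without *Eya1*cKO 1 there were 23 of 46 that passed (against 33.5% of all genes in that fit), 19 of them lower (41.3%, against 14.8%). Without *Eya1*cKO 2 there were 30 (65.2%, against 35.3%), 24 of them lower (52.2%, against 15.5%). All 15 genes named above as changed kept their direction in both of these fits. That was nearly fixed in advance, since each had its *Eya1*cKO libraries on 1 side of both controls, so it adds no support.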

How the data were processed

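RNA-seq was carried out on tdTomato+ cells sorted from kidneys, 5000 per library, in 2 Control and 2 *Eya1*cKO libraries. mRNA was made into random-primed, strand-specific libraries. Per the labels and methods, the authors mapped single-end reads to mm10 with HISAT2 and counted them on Ensembl genes with HTSeq-count. The deposited values are raw counts per gene, without normalization, and the strand setting of the counting is not given in the sources used here. Rows of reads assigned to no gene (12.9% to 22.7% per library), ambiguous or not aligned (6.32% to 12.9%) stayed out of library sizes. The labels give 6 kidneys per genotype from 4 females, and the methods give other numbers.

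Counts were tested in R 4.3.3 with edgeR 4.0.16 (filterByExpr with a minimum count of 10, TMM scaling, glmQLFit and glmQLFTest on genotype, Benjamini-Hochberg threshold 0.05). Standard errors were derived from the fold change and the F statistic (absolute log2 value divided by the root of F). Alternatives were DESeq2 1.42.0, other scalings and filters, a replicate block, thinning to the smallest library and each library left out in turn. TPM used the union of exons of GENCODE M21 (GRCm38), a later annotation than the one counted on. In it 15 of the 46 genes share exonic bases with a gene on the opposite strand and 9 on the same strand. A level of 3 counts, the floor of detection, corresponds to 0.0801 to 0.171 CPM, for counting error only. Libraries of a genotype differed by more than sampling noise (chi-square per degree of freedom 9.65 for Control and 50.4 for *Eya1*cKO).

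All 46 genes are named. Those that passed are given with counts, standard error and adjusted *P*, and at most 3 of smallest *P* per direction from each list of other complex genes. The promoter windows shown were chosen after the results were seen. The members and lists were chosen with earlier results of these data known.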

Additional observations from a re-analysis of the deposited data

How the results depend on the processing

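The median log2 fold change of the 46 remodeller genes stayed negative under all 13 alternatives, from -0.27 without *Eya1*cKO 2 to -0.16 without *Eya1*cKO 1. The number that passed was 15, and 12 to 16 under the alternatives of scaling, filter, depth and test. *Arid2* was lost with no filter, the legacy method, thinning, library totals alone and DESeq2's size factors, *Hells* and *Smarcal1* with no filter, and DESeq2's Wald test added *Smarca1*. With a replicate block 7 passed, 6 of them lower (*Arid1a*, *Chd7*, *Ep400*, *Smarca4*, *Smarca5* and *Smarcc1*, with *Chd3* higher). Deviations of same-numbered libraries correlated at 0.0062 over genes, so no shared deviation was seen over genes as a whole. Whether some genes share one was not tested, and the calls lost under this block stand as a limit. Leaving out 1 library gave 0 to 30 remodeller genes, 0 to 24 of them lower. The lone library is then assumed to vary like the other group. Over all genes, 1820 passed, and 1055 with no filter, 3102 with DESeq2's Wald test, 1096 with the legacy method, 621 with the block and 23 to 7925 with 1 library left out. Of the 66 other complex genes 8 passed, and 4 with no filter, 4 with the legacy method, 1 with the block, 5 after thinning and 0 to 32 with 1 library left out. The sign differed between the fits without *Eya1*cKO 1 and without *Eya1*cKO 2 for 12 of the 46 and 22 of the 66 genes, and 4 of these passed in a fit of the opposite sign to that with all 4 libraries, *Phf10* (log2 fold change 0.32 and -0.39), *Znhit1* (-0.70 and 0.48), *Actr6* (0.82 and -0.97) and *Daxx* (0.35 and -0.40). With the longest transcript as length, the differences in share (*Eya1*cKO minus control, in percentage points) were 5.73 for *Smarca2* (2.79 with exonic length), -5.73 for *Smarca4* (-2.79), -1.12 for *Actl6a*, 1.12 for *Actl6b* and -8.59 for *Chd7*, and the median control level was 82.8 TPM. The cause of these differences was not tested.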
